A study of Mus musculus with 6 samples.

Results

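The pentose phosphate pathway was followed through the transcripts of 8 enzymes in pancreatic islets whose beta cells lack the von Hippel-Lindau gene. The enzymes were named by function (G6pdx, H6pd, Pgls, Pgd, Rpe, Rpia, Tkt and Taldo1), and every probe set assigned to exactly 1 of these symbols was taken. That gave 14 probe sets for 7 of the 8 genes, among 18193 genes with such a probe set in all. G6pdx had no probe set of this kind in the annotation used here and was not analysed here. All 7 measured enzymes were bright enough to be tested, among 11609 genes tested.

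The pathway branches from glycolysis at glucose 6-phosphate. Its oxidative steps, catalysed by glucose-6-phosphate dehydrogenase, 6-phosphogluconolactonase and 6-phosphogluconate dehydrogenase, yield NADPH and ribulose 5-phosphate. Its reversible, non-oxidative steps interconvert pentose phosphates and return carbon to glycolysis as fructose 6-phosphate and glyceraldehyde 3-phosphate. In beta cells the pathway is known as a source of NADPH, which serves glutathione and thioredoxin reduction, and of ribose for nucleotides. Hypoxia-inducible factor (HIF), which accumulates when the von Hippel-Lindau protein is missing, is known to induce many enzymes of the neighbouring glycolytic route.

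The study used 6 Affymetrix arrays of isolated mouse islets, 3 labelled control and 3 labelled VhlhKO. The knockout was made by crossing floxed Vhlh, written Vhlh(fl/fl), with RIP2-Cre, in which a rat insulin promoter drives the recombinase in beta cells. The labels give this model for both groups alike and do not say which alleles the controls carried. In both groups the array numbered 01 was from male mice aged 26 weeks, 02 from female mice aged 20 weeks and 03 from male mice aged 18 weeks. Each array stands for 1 batch of islets from an unstated number of mice. The p-values of the main fit thus measure the spread between batches that also differ in age and recorded sex. Other islet cells keep the gene, and in such bulk RNA fewer cells of a type and less RNA per cell cannot be told apart. Values are MAS5 signals, the array software's summary of a probe set's brightness in arbitrary units, and levels of different genes are not compared because their probes differ.

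The arrays differed in ways that touch the values below. Median signals lay between 101.9 and 122.7. The Vhl probe set bright enough to test was at 457, 639 and 839 in controls 01 to 03 and at 344, 358 and 467 in knockouts, with overlap between the groups, a knockout level at 61.7% of control and a limma adjusted p of 0.9998. Whether its probes lie in the deleted stretch was not examined, so it checks the labels only in part. Beta-cell markers (9 of 12 tested) had summed signals of 101479 to 134767 in controls and 78528 to 138250 in knockouts, and no signal in the table was at 0. Acinar markers (15 of 19 tested) summed to between 121118 and 532047 in controls and between 12620 and 674921 in knockouts, the lowest on knockout 03. Fibroblast and matrix markers (15 of 16 tested) summed to 5908 to 10125 in controls and 9075 to 28456 in knockouts. The mean log2 difference, knockout minus control, was 1.10 for matrix, 0.94 for neural and Schwann, 0.49 for duct and 0.46 for endothelial markers. It was 0.31 for leukocyte, 0.30 for alpha, delta and PP, -0.28 for beta-cell and -0.94 for acinar markers. In the pairs numbered 01, 02 and 03 the acinar difference was 0.05, 0.24 and -3.11, so its mean rests on the 03 pair. The matrix difference was 0.89, 0.26 and 2.15. The actin control probe sets gave a 3' over 5' signal ratio of 3.83, 3.34 and 15.1 in controls 01 to 03 and of 11.3, 3.43 and 7.97 in knockouts 01 to 03. A high ratio means that the RNA or its amplified copy was short of 5' sequence. By the actin ratio control 03 and knockouts 01 and 03 stood apart. The Gapdh control probe sets did not share that split. Their 3' minus 5' log2 signal was 2.51, 2.26 and 2.52 in controls 01 to 03. In knockouts 01 to 03 it was 3.57, 2.61 and 2.21, so knockout 01 was highest and knockout 03 lowest.

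None of the 7 enzymes passed the test between the genotypes. With limma over all 11609 genes, 0 of the 7 had an adjusted p under 0.05, where 2 of all genes or 0.0172% did, and 0 of the 7 had an unadjusted p under 0.05, where 2.58% of all genes did. In 0 of the 7 did the 3 knockout signals lie wholly above or below the 3 control signals, where 6.75% of all genes had such a gap. The adjusted p was 0.9998 for each of them. With the replicate number as a block 0 of the 7 had an adjusted p under 0.05, where 0.0517% of all genes did, and 0 of the 7 an unadjusted p under 0.05, where 5.03% did. The median log2 difference of the 7 was 0.02, with 4 above and 3 below 0, beside a median of -0.00028 over all genes tested. The differences ran from -0.53 for Rpe to 0.27 for H6pd. With the mean level of the matrix markers as a covariate they ran from -1.02 for Rpia to 0.69 for H6pd, again with 0 passing.

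**Figure D1:**
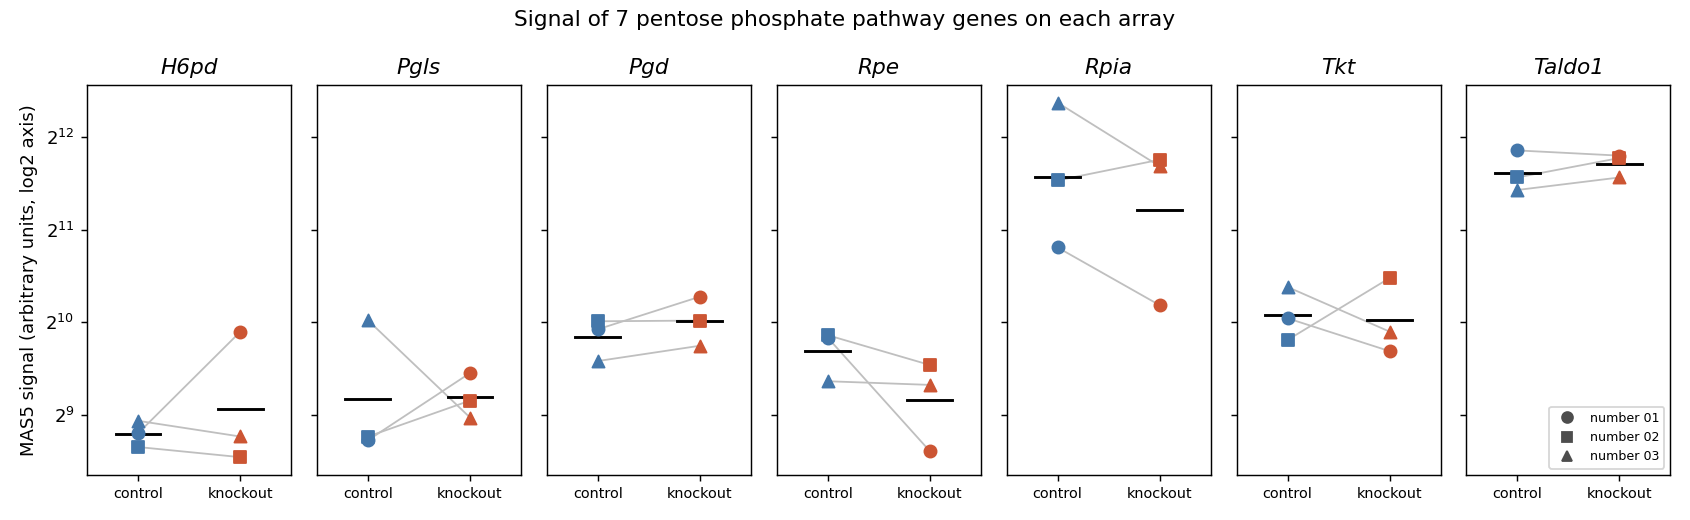
MAS5 signal (arbitrary units, log2 axis) of 7 pentose phosphate pathway genes in control (blue) and knockout (orange) islets. Each point is 1 array, grey lines join arrays of the same number, and black bars are geometric means (n = 3). Control and knockout points overlap for each gene, with knockout 01 set apart for H6pd and Rpe.

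The promoters were searched for motifs as a description of the sequence. The window ran from 250 bases before to 50 after each RefSeq start site, on both strands. ACGTG, a form of the core that HIF binds, was in 0 of the 8 windows of the 7 measured enzymes. It was in 19.6% of all 32851 windows. The other form, GCGTG, was not searched for, so these counts do not cover every HIF core. All 8 enzymes had a RefSeq entry, with 9 windows, and the G6pdx window held ACGTG 29 bases after the start. ACGTG was in 8 of the 17 windows of the 10 tested glycolytic genes. These covered 6 of the 10 genes, among them 2 of the 5 whose interval lay above no change. Counted by gene, ACGTG was in 0 of the 7 measured enzymes and in 21.8% of all 27025 genes with a window. CACGTG, the E-box, which contains ACGTG, was in 0 of the 8 windows and in 7.15% of all. TGACNNNGC, the antioxidant response element core that NRF2 binds, was in 1 of the 8 windows, that of a second Pgd start site. It was in 12.4% of all windows and in 4 of the 17 of the tested glycolytic genes. The G6pdx window also held it, beginning 57 bases before the start. A match is not a bound site, and its absence here says only that these letters are not in this window.

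The 250 bases before the start site are printed for Pgd and Tkt, enzymes with several probe sets, and for Hk2. Hk2, a hexokinase gene that makes glucose 6-phosphate, was chosen after its values were seen. Its window shows ACGTG, which the Pgd and Tkt windows lack. Hk2 itself gave 81.7, 79.3 and 157 in controls and 135, 208 and 232 in knockouts. Controls 01 and 02 lay below their array medians, so Hk2 entered the test through control 03 and the knockouts. Its log2 difference was 0.89 (standard error 0.47, limma adjusted p 0.9998), and it rests on dim control signals. Sequences are from RefSeq, build GRCm38.p6, written 5′ to 3′ on the gene's strand, and capitals mark ACGTG or its reverse complement CACGT.
Pgd, chr4:149166706-149166955, minus strand: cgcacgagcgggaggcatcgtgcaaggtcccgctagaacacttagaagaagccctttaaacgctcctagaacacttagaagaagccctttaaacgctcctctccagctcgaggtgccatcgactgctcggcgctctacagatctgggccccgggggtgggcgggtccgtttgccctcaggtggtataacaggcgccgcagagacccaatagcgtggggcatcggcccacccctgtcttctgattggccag
Tkt, chr14:30548881-30549130, plus strand: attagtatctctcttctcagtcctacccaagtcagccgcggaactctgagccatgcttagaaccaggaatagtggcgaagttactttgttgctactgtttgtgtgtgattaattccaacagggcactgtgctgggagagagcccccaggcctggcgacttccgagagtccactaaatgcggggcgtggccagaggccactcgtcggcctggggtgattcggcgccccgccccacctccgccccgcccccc
Hk2, chr6:82774455-82774704, minus strand: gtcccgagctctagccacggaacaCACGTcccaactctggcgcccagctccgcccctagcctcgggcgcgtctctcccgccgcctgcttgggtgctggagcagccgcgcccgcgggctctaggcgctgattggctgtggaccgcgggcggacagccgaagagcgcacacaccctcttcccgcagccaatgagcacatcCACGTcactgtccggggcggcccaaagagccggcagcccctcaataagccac
In the printed Hk2 stretch ACGTG occurs 2 times, beginning 226 and 52 bases before the start site. In the Pgd and Tkt stretches it occurs 0 times, but both hold GCGTG, which was neither searched for nor marked.

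Of the oxidative enzymes, H6pd is the hexose-6-phosphate dehydrogenase of the endoplasmic reticulum, which carries out the first steps of the pathway there. Its signals were 447, 404 and 491 in controls and 953, 374.2 and 437 in knockouts. Only knockout 01 lay above the control range, while knockout 03 lay within it and knockout 02 below it. Controls averaged a log2 signal of 8.80 ± 0.14 (SD, n = 3). Knockouts averaged 9.07 ± 0.72 (SD, n = 3), a difference of 0.27 (standard error 0.38). Without knockout 01 the difference was -0.14.

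Pgls encodes 6-phosphogluconolactonase, which opens the lactone made by the first dehydrogenase. Its signals were 425, 436 and 1040.2 in controls and 701, 571 and 503 in knockouts. The knockout values all lay between the second and the highest control value, and control 03 alone was higher than every knockout. The log2 difference was 0.02 (standard error 0.38). Within same-numbered pairs it was 0.72, 0.39 and -1.05, so the pairs did not share a direction, and without control 03 the difference was 0.45.

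Pgd encodes 6-phosphogluconate dehydrogenase, which yields NADPH and ribulose 5-phosphate. The probe set that stands for it gave 972, 1032 and 767 in controls and 1240.5, 1038 and 859.9 in knockouts. The groups overlapped, while each knockout exceeded the control of the same number, by 0.35, 0.01 and 0.16 on the log2 scale. The log2 difference was 0.17 (standard error 0.28) with a two-sided exact permutation p of 0.4, where the smallest possible is 0.1. The difference was 0.05 without control 03 and 0.04 without knockout 01.

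Rpe encodes ribulose-5-phosphate 3-epimerase, which makes xylulose 5-phosphate. It had the lowest p of the 7 enzymes and ranked 961 of 11609 genes by p. Its signals were 913, 930.5 and 660 in controls and 392, 745 and 642 in knockouts. Knockout 01 was lowest, and knockout 02 lay inside the control range. The log2 difference was -0.53 (standard error 0.32), an unadjusted limma p of 0.138 and a two-sided exact permutation p of 0.2. The knockout was lower in 3 of 3 same-numbered pairs, by values of -1.22, -0.32 and -0.04, and the difference was -0.25 without knockout 01. A second bright Rpe probe set pointed the same way, with 689, 649.9 and 582 in controls, 528, 643 and 390.03 in knockouts and a log2 difference of -0.33 (standard error 0.29). The third Rpe probe set lay below the array medians on all arrays, at 3.49 to 46.6, and was not tested. With that dim probe set averaged in, the sign of the gene's difference turned to 0.12.

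The 5 tested genes whose log2 signal followed that of Rpe most closely over the 6 arrays were Syt14, Usp15, Ncoa4, Jak1 and Pgm3, with Pearson correlations between 0.980 and 0.994. These are a description of 6 arrays that share the genotype contrast, the numbers and the actin and Gapdh values given above. None of the 5 passed the test, and their log2 differences lay between -0.79 and -0.36.

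Rpia encodes ribose-5-phosphate isomerase, which makes the ribose 5-phosphate used for nucleotides. Its signals varied most among the 7 enzymes, at 1791, 2956 and 5285 in controls and 1164, 3451 and 3285 in knockouts. The lowest control and the lowest knockout carried the number 01, and the spread within a genotype exceeded the difference between genotypes. The log2 difference was -0.36 (standard error 0.51). It was -0.62, 0.22 and -0.69 in the pairs numbered 01, 02 and 03, and it turned to 0.15 without knockout 01 and to 0.04 without control 03.

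Tkt encodes transketolase, the enzyme that moves 2-carbon units between sugar phosphates. Its standing probe set gave 1056, 898 and 1334 in controls and 826, 1426 and 956 in knockouts. Knockout 02 was the highest of the 6 arrays and knockout 01 the lowest. The log2 difference was -0.06 (standard error 0.31), and it was 0.11 without knockout 01. Taldo1 encodes transaldolase, which moves 3-carbon units in the same branch. Its signals of 3699, 3024 and 2753 in controls and 3558, 3495 and 3023 in knockouts were the closest together of the 7 enzymes, with an SD over all arrays of 0.17 on the log2 scale. The log2 difference was 0.10 (standard error 0.25), and 0.0023 without control 03.

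The size of change that these arrays allow was read from the 95% intervals of the fit. For 6 of the 7 enzymes the interval lay below a 2-fold rise, with upper bounds of 1.15-fold for Rpe, 1.56-fold for Tkt, 1.58-fold for Taldo1, 1.71-fold for Rpia, 1.74-fold for Pgd and 1.85-fold for Pgls. For H6pd the upper bound was 2.17-fold. On the other side, 5 of the 7 intervals lay above a 2-fold fall, the exceptions being Rpe, with a lower bound of 0.418-fold, and Rpia, with 0.354-fold. All 7 intervals included no change, which does not show that the levels were equal. These bounds hold for the probe set that stands for each gene: over the 12 tested probe sets of the pathway, 7 intervals lay below a 2-fold rise.

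The 5 tested probe sets whose interval reached a 2-fold rise were the H6pd set and 4 sets of Pgd and Tkt whose names end in _x_at, a kind that can bind related transcripts. Pgd had 3 of the _x_at sets. Set 1436771_x_at gave 2700, 2773 and 4834 in controls and 7581, 3052 and 4897 in knockouts, a log2 difference of 0.55 (standard error 0.39). Set 1437380_x_at gave 1803, 1929 and 3967 in controls and 6441, 2371 and 4126 in knockouts, a log2 difference of 0.73 (standard error 0.44) whose interval reached 3.27-fold. In both, knockout 01 was the highest array and every knockout exceeded the control of its number, but the groups overlapped and control 03 exceeded knockout 02.

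The remaining set, 1438627_x_at, gave 1333, 1176 and 3349 in controls and 2971, 1517 and 2173 in knockouts, a log2 difference of 0.30 (standard error 0.44). The Tkt set 1439443_x_at gave 5261, 4622 and 9360 in controls and 10618, 4035 and 6875 in knockouts, a log2 difference of 0.12 (standard error 0.40). In all of these sets the 3 highest arrays were control 03, knockout 01 and knockout 03, the same arrays that had the highest actin 3' over 5' ratio. The standing Pgd probe set, 1423706_a_at, was lowest on control 03 and knockout 03, and its ratio to 1437380_x_at ranged over 1.49 on the log2 scale across arrays. Tkt had a further dim set, 1436605_at, at 8.61 to 57.1 and not tested.

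None of the 12 tested probe sets had an unadjusted limma p under 0.05 when every probe set was tested on its own, where 2.21% of 19853 did. In a fit with the actin ratio as a covariate, chosen after the values were seen, the Tkt _x_at difference was -0.0027. The Pgd _x_at differences were 0.43, 0.59 and 0.16. For 1437380_x_at the unadjusted limma p was 0.0315, the lowest of the 12 tested probe sets, and the adjusted p 0.9997. In the gene fit with that covariate 488 of 11609 genes had an unadjusted limma p under 0.05, and the share over probe sets is not given. Bright _x_at probe sets in general, 1530 in all, had a median deviation from their own means of 0.21 on control 03, 0.20 on knockout 01 and 0.01 on knockout 03, against -0.12, -0.12 and -0.07 on controls 01 and 02 and knockout 02. What part these array properties have in the Pgd and Tkt values was not tested beyond the covariate.

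**Figure D2:**
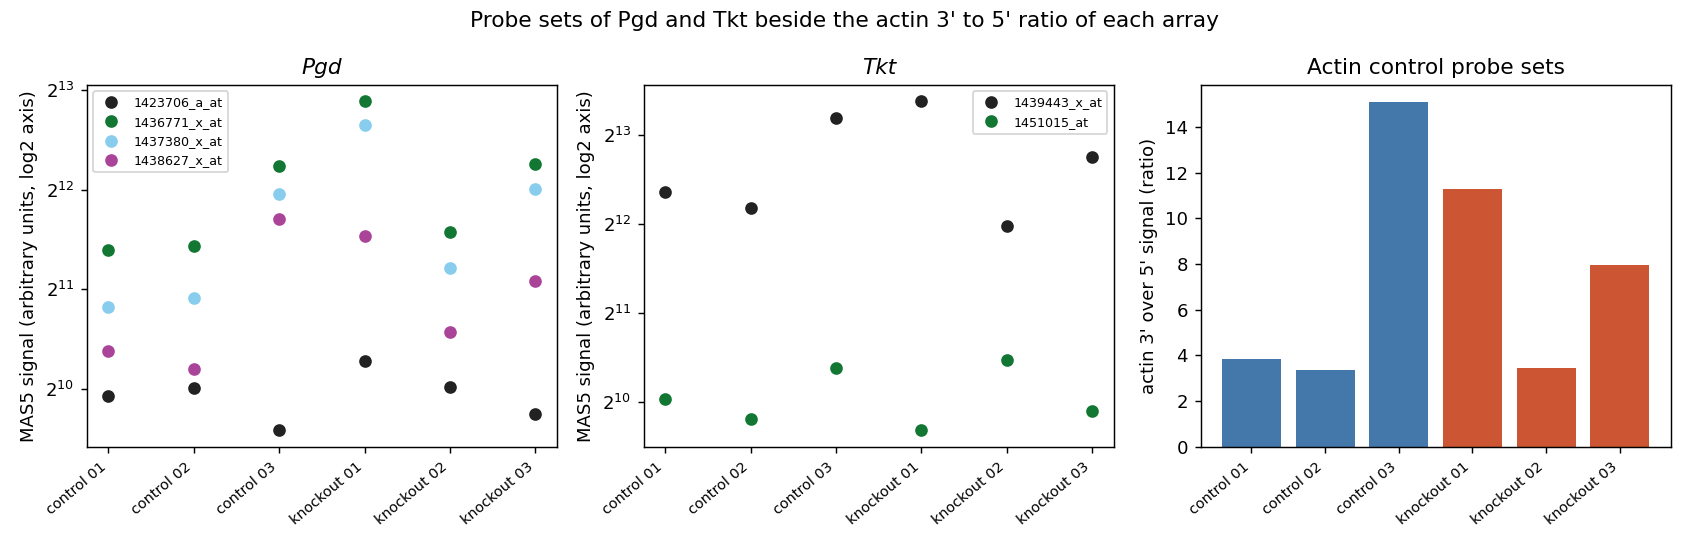
Left and middle, MAS5 signal (arbitrary units, log2 axis) of the tested probe sets of Pgd and Tkt on each array; right, 3' over 5' signal ratio of the actin control probe sets (blue bars control, orange bars knockout). The _x_at sets are highest on control 03, knockout 01 and knockout 03, where the actin ratio is 15.1, 11.3 and 7.97. Among these arrays only the Pgd set 1438627_x_at follows the order of the ratio. The sets not of the _x_at kind are not highest on the same arrays.

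The glycolytic enzymes that make or use the same sugar phosphates gave a different picture. Of 15 such genes fixed as a list, 10 were tested, 9 had a higher and 1 a lower mean in the knockout, and the median log2 difference was 0.95. By the unadjusted limma p, 5 of the 10 were under 0.05, all higher, where 2.58% of all genes were in either direction, and 0 of the 10 passed after adjustment over all genes. The same 5 (Pfkp, Aldoc, Pfkl, Tpi1 and Aldoa) had knockout signals wholly above the control signals, where 6.75% of all genes had a gap in either direction. Aldoa, named after its values were seen, was measured by an _x_at probe set. With the replicate block Pfkl and Tpi1 passed, each with a limma adjusted p of 0.0476, among 6 of all 11609 genes that passed in that fit. In it 6 of the 10 had an unadjusted p under 0.05, where 5.03% of all genes did.

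Pfkp, a phosphofructokinase that commits fructose 6-phosphate to glycolysis, stood at 3981, 3853 and 4758 in knockouts against 670.1, 1270.2 and 704 in controls. That is 4.96-fold higher, with an interval from 3.03-fold to 8.09-fold and an adjusted p of 0.0863. Tpi1, the isomerase that supplies glyceraldehyde 3-phosphate, was 3.54-fold higher with an interval from 1.65-fold to 7.61-fold and an adjusted p of 0.9998. Pfkl, a further phosphofructokinase, was 3.92-fold higher (2.03-fold to 7.58-fold), and the aldolase gene Aldoc was 2.66-fold higher (1.69-fold to 4.18-fold). The lower bound for Pfkp, the glycolytic gene of lowest p, lay above the upper bound of each of the 7 pentose phosphate enzymes. That holds for the probe set that stands for each enzyme, while the upper bound of the Pgd set 1437380_x_at was 3.27-fold. The lower bounds for Pfkl, Aldoc, Tpi1 and Aldoa (1.25-fold) all lay below the 2.17-fold upper bound of H6pd. Whether both lists differ as lists was not tested, and the glycolytic result was known when they were chosen.

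**Figure D3:**
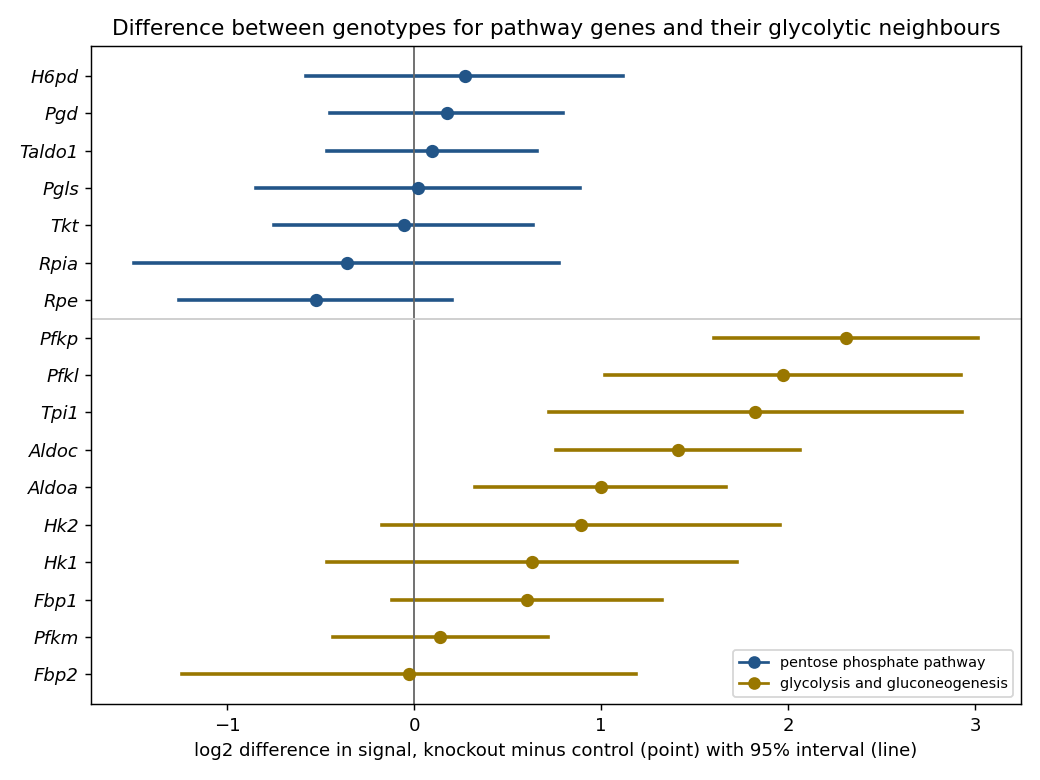
Log2 difference in signal, knockout minus control (points), with the 95% interval of the limma fit (lines, n = 3 arrays a group) for 7 pentose phosphate pathway genes (blue) and 10 genes of glycolysis and gluconeogenesis that share their intermediates (brown). All 7 blue intervals span 0, and 5 of the 10 brown intervals lie above 0.

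Other enzymes of pentose metabolism did not pass either. Of 14 listed genes 9 were tested, 4 with a higher and 5 with a lower mean in the knockout. Their median log2 difference was -0.16, and 0 of the 9 had an unadjusted limma p under 0.05, where 2.58% of all genes did. Dera, the deoxyribose-phosphate aldolase, had the lowest p: it gave 401, 319 and 312 in controls and 197, 242 and 298 in knockouts. Dera was the 1 gene of the 9 without overlap, where 6.75% of all genes had none, and its log2 difference was -0.50 (standard error 0.31, adjusted p 0.9998). Prps1, which makes phosphoribosyl pyrophosphate from ribose 5-phosphate, differed by -0.36 with overlapping groups. Pgm2, a phosphopentomutase, differed by -0.24 and Prpsap1, a partner of the pyrophosphate synthetases, by 0.20. The transketolase-like genes Tktl1 and Tktl2, the G6pdx-related G6pd2, the sedoheptulose kinase gene Shpk and Prps1l1 were too dim to test.

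Other sources of NADPH were likewise below the threshold. All 11 listed genes were tested, 4 with a higher and 7 with a lower mean in the knockout. Their median log2 difference was -0.11, and 0 of the 11 had an unadjusted limma p under 0.05, where 2.58% of all genes did. The mitochondrial folate enzymes Aldh1l2 and Mthfd2 differed by 0.43 (standard error 0.36) and 0.40 (standard error 0.40). The cytosolic folate enzymes Mthfd1 and Aldh1l1 differed by -0.21 (standard error 0.23) and -0.62 (standard error 0.87). The 1 gene of this list without overlap was Me3, a mitochondrial malic enzyme named after its values were seen, with a log2 difference of -0.28 (standard error 0.42), where 6.75% of all genes had no overlap.

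Of 13 genes for NADPH-using redox enzymes and targets of NRF2, a transcription factor that induces several pentose phosphate enzymes, 10 were tested. There were 6 with a higher and 4 with a lower mean in the knockout and a median of 0.03. An unadjusted limma p under 0.05 was found for 0 of the 10, where 2.58% of all genes had one. Gsr, glutathione reductase, gave 909, 548 and 418 in controls and 291, 574 and 287 in knockouts. Knockout 02 lay inside the control range, and the log2 difference was -0.71 (standard error 0.40). The thioredoxin reductases Txnrd3 and Txnrd1 differed by 0.39 and -0.23, and Keap1, the inhibitor of NRF2, by 0.29.

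H6pd supplies NADPH inside the endoplasmic reticulum, and the genes linked to that pool showed no shared direction. Of 5 listed genes 4 were tested, 1 with a higher and 3 with a lower mean in the knockout. An unadjusted limma p under 0.05 was found for 0 of the 4, where 2.58% of all genes had one. Slc37a4, which carries glucose 6-phosphate into the reticulum, gave 6970.1, 6784 and 2683 in controls and 2134, 5986 and 2409 in knockouts. Control 03 was low like knockouts 01 and 03, and the log2 difference was -0.68 (standard error 0.49). Hsd11b1, the reductase that uses this NADPH to activate glucocorticoids, differed by 0.31 (standard error 0.77). G6pc2, the glucose-6-phosphatase catalytic subunit of islets, differed by -0.06 and the widely expressed G6pc3 by -0.05.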

How the data were processed

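Isolated mouse islets of 3 control and 3 VhlhKO samples were compared, 1 array each. The authors deposited a linear MAS5 signal intensity for each probe set, and the submitters' processing notes name GCOS 1.4 and MAS5. The labels' protocols state 2-cycle cDNA synthesis and in vitro transcription, which can shorten copies at the 5' end. After trimming 2% at each end, every array had a mean of 500.003, so the deposited signals are already scaled. With 3 arrays a group the precision is limited, and it also depends on each gene's spread. Among the measured enzymes the standard error ran from 0.25 for Taldo1 to 0.51 for Rpia.

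Of 45101 probe sets 64 controls were left out. Of the rest, 34945 had 1 gene symbol, 932 several and 9160 none. Symbols were checked by Entrez identifier against RefSeq genes of GRCm38.p6, which matched 34741 and changed 0. Each gene was read from its brightest probe set by mean log2 signal, taking an _x_at set only where no other existed, and tested if above the array median on at least 3 of 6 arrays. The log2 signals were compared with limma 3.58.1 in R 4.3.3 (lmFit, eBayes with intensity trend), with Benjamini-Hochberg adjustment over all genes at 0.05. The fit was tested on simulated data.

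Deviations from group means correlated at 0.15, 0.42 and 0.43 within the pairs numbered 01, 02 and 03, each over 0.1. Between unlike numbers, control 01 with knockout 02 gave 0.14, and the others ran from -0.43 to -0.03. Same-numbered arrays share age and recorded sex, but these values do not show that the 01 arrays are paired. The fit with the replicate block was an alternative.

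The enzymes and gene lists were chosen with earlier results of these data known. Named were the 7 measured enzymes, the 4 genes of lowest p of each related list, the 5 genes most like the enzyme of lowest p, Vhl, and the genes passing over all genes, Ak4 and Prelid2. The alternatives and their effect are given in the closing section. A planned comparison of protein sequences was not made, since no protein table was used here. Marker lists were read as mean log2 signals and as summed signals.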

Additional observations from a re-analysis of the deposited data

How the results depend on the processing

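Of 23 alternatives, 1 left only 1 knockout. No enzyme of the pathway passed under the others, and 0 had an unadjusted limma p under 0.05 in any of them. Their adjusted limma p-values lay between 0.990 and 0.99996. Each alternative followed 1 value a gene, not every probe set. The Pgd set 1437380_x_at, not followed on its own, had an unadjusted limma p of 0.0315 with the actin covariate. In the gene fit with that covariate 488 of 11609 genes had an unadjusted limma p under 0.05. Signs near 0 turned often, and the cause was not tested. Pgls was at -0.010 with median centring, -0.0074 with the acinar and -0.076 with the actin covariate. Tkt was at 0.068 with array weights, 0.083 with the matrix covariate, 0.12 with every probe set on its own (with or without the replicate block) or with the brightest probe set of any kind, and 0.16 without both arrays numbered 03. With array weights Rpia was at 0.11 and Taldo1 at -0.0043. Averaging the probe sets of Rpe, 1 of them dim, gave 0.12. Without control 03, knockout 01 and knockout 03, chosen after the data were seen and leaving 1 knockout assumed to vary like the controls, H6pd was at -0.18, Rpia at 0.58 and Tkt at 0.55. Leaving out 1 array gave ranges of -0.14 to 0.53 for H6pd, -0.20 to 0.45 for Pgls, 0.04 to 0.31 for Pgd, -0.72 to -0.25 for Rpe, -0.74 to 0.15 for Rpia, -0.28 to 0.11 for Tkt and 0.0023 to 0.22 for Taldo1. Pgd had the same sign throughout, and its highest value, 0.55, came from its brightest probe set, of the _x_at kind.

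Over all genes 2 passed. The count was 6 with the replicate block, 4 with every probe set on its own and 4 with that and the block, 4 with a pseudocount of 50, 1 with signal above the median on all 6 arrays, and 0 with the matrix covariate, without both arrays numbered 03, or without control 03, knockout 01 and knockout 03 (unadjusted limma p under 0.05 for 238, 268 and 874). Leaving out 1 array gave 0 to 5, with 5 without control 02 and 0 without knockout 01 or without knockout 03 (498 and 254 with an unadjusted limma p under 0.05). The replicate block changed no call among the pathway's enzymes.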

Other observations

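Among listed genes too dim to test, chosen here after their values were seen, G6pc, the glucose-6-phosphatase of liver, gave 4.65, 4.201 and 5.30 in controls and 72.1, 44.96 and 34.2 in knockouts, all below the array medians. The groups did not overlap, and no fold is given for signals this dim. Prps1l1 gave 12.9, 60.0 and 10.3 in controls and 4.80, 4.90 and 4.72 in knockouts, also below the medians on all 6 arrays.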
